A study of Sus scrofa with 23 samples.

Results

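Osteoclasts are the multinucleated cells of the monocyte and macrophage lineage that dissolve bone and calcified cartilage. They seal themselves to mineral through an integrin, pump acid into the space beneath them, and release enzymes that break down collagen once the mineral is gone. In growing joints they follow the blood vessels that invade calcified cartilage as it is replaced by bone. The transcripts described here belong to 4 genes with distinct parts in that process: ACP5, the tartrate-resistant acid phosphatase that serves as the classical stain for osteoclasts, CTSK, the cysteine protease cathepsin K that cleaves bone collagen, ITGB3, the beta chain of the vitronectin receptor through which osteoclasts attach, and CALCR, the receptor through which calcitonin halts resorption. All probe sets whose gene symbol in the platform annotation is exactly one of these names were taken, which gave 5 of the 24123 probe sets on the array, and 4 of the 6765 genes that it names singly. ACP5 (Entrez gene 397414), CTSK (397569) and ITGB3 (397063) have 1 probe set each and CALCR (397638) has 2.

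The samples were articular cartilage of pigs from a cross of Duroc and Pietrain, taken from sib-pairs in which animals were affected or not affected by osteochondrosis, a disorder of the orderly conversion of joint cartilage to bone. The labels distinguish 4 groups: affected femur (medial femoral condyle, knee), non-affected femur, affected humerus (medial humeral condyle, elbow) and non-affected humerus. They name neither age, sex nor which samples were sibs, and they do not say that each array came from its own animal, so a p-value here speaks only of the spread among these samples, which may be technical. Each Affymetrix Porcine Genome Array reports a log2 signal for every probe set, with a floor at 4 under which no value lies.

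The 23 arrays were counted as 21 samples, because humerus affected 5 and 6 (SD of their differences over probe sets 0.11) and femur non-affected 1 and 2 (0.21) were closer than any other arrays of a group and were averaged. This left 4 affected and 4 non-affected femoral samples, and 7 affected and 6 non-affected humeral samples. Array medians ran between 6.05 and 6.17 in the femur and between 6.18 and 6.33 in the humerus. Between 3.3% and 4.5% of probe sets lay at the floor on femoral arrays, and between 1.3% and 2.4% on humeral ones. The bacterial bioB and bioC transcripts, which are added in fixed amounts before hybridisation, averaged 10.37 ± 0.10 (SD, n = 9) on femoral and 8.84 ± 0.11 (SD, n = 14) on humeral arrays, with no overlap between the sites. The dap, lys and phe control transcripts averaged 9.29 ± 0.13 and 9.39 ± 0.23 on the same arrays. The joint and the handling of its arrays therefore cannot be told apart in any comparison of femur with humerus. The 6 measured chondrocyte markers (COL2A1, ACAN, SOX9, COL11A1, HAPLN1 and COMP) had a mean between 11.12 and 12.34 in every sample. The humeral sample non-affected 5 held the lowest humeral signal of 4 of the 5 members, and the highest of CALCR Ssc.8116.1.S1_at, at 6.26. Member differences without it are given with each comparison it enters. For CALCR Ssc.8116.1.S1_at within the humerus, only the range over left-out samples is given. The gene and marker lists include this sample throughout.

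These transcripts differed mainly by joint. In affected cartilage, ACP5, CTSK, ITGB3 and 1 CALCR probe set were lower in the femur than in the humerus, and the other CALCR probe set was higher. ACP5 showed the largest drop of all 16799 probe sets tested, at 121-fold, a size that is not exact because its lowest femoral values lie near the floor. In non-affected cartilage ACP5 and ITGB3 were again lower in the femur, by smaller amounts. Affected and non-affected samples of the same joint overlapped for every member. ACP5, CTSK and ITGB3 averaged higher in affected than in non-affected humerus and lower in affected than in non-affected femur, and no status difference of a member passed the test.

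**Figure D1:**
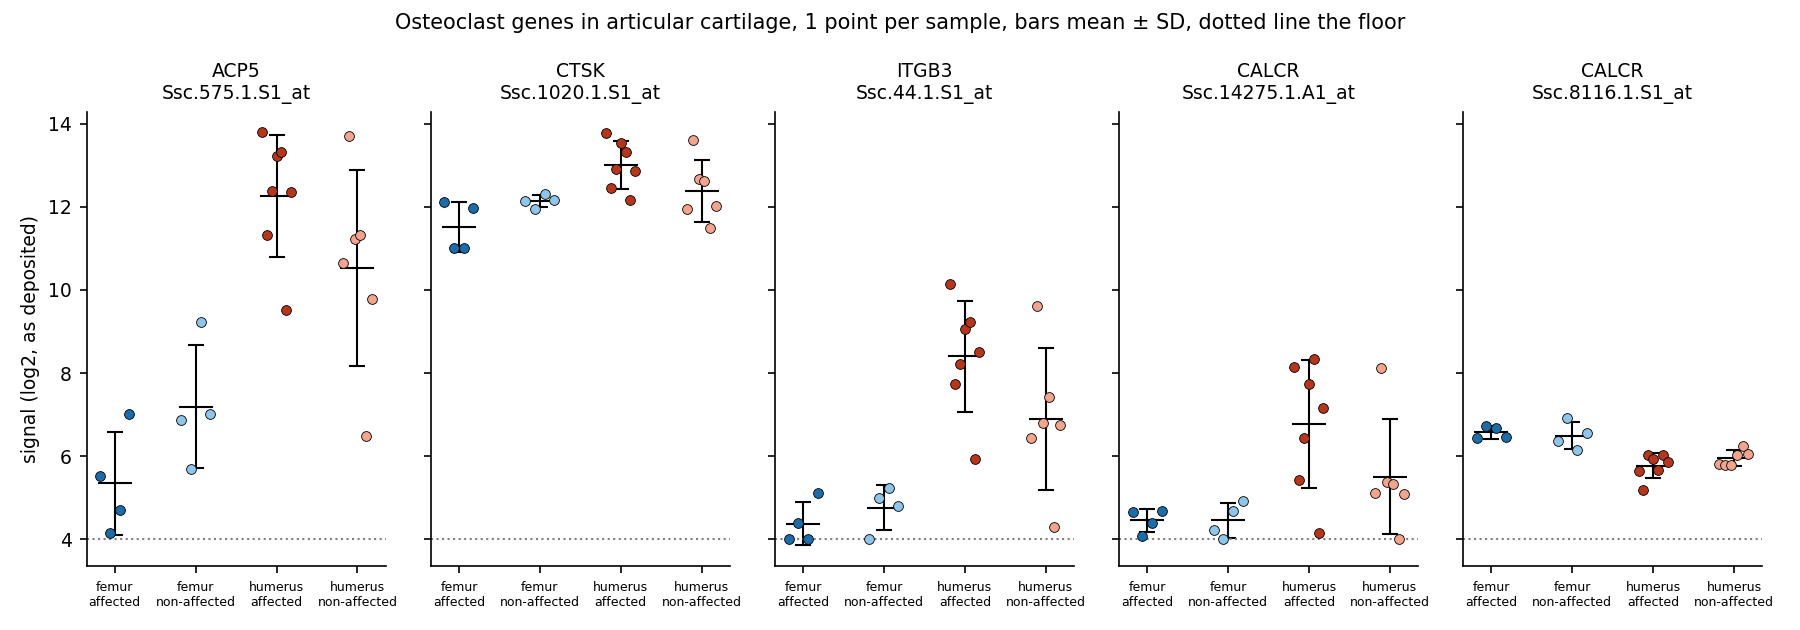
Signal of the 5 osteoclast probe sets (vertical axis, log2 as deposited) in each sample of the 4 groups, with mean ± SD as bars and the floor at 4 as a dotted line. ACP5, ITGB3 and CALCR Ssc.14275.1.A1_at sit high in the humerus and low in the femur, CTSK differs less, and CALCR Ssc.8116.1.S1_at runs the other way.

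ACP5 (Ssc.575.1.S1_at) read 5.53, 4.15, 4.71 and 7.01 in affected femur, against a lowest value of 9.51, a median of 12.37 and a highest of 13.80 in the 7 affected humeral samples. In non-affected femur it read 6.86, 5.69, 9.23 and 7.01, against a lowest of 6.50, a median of 10.93 and a highest of 13.70 in non-affected humerus. No affected femoral sample reached any affected humeral one, whereas the non-affected sites overlapped through the low humeral sample non-affected 5 at 6.50 and the high femoral sample non-affected 4 at 9.23. The group means were 5.35 ± 1.24 (SD, n = 4) in affected femur, 7.20 ± 1.48 (SD, n = 4) in non-affected femur, 12.27 ± 1.46 (SD, n = 7) in affected humerus and 10.53 ± 2.37 (SD, n = 6) in non-affected humerus. Ordered by level, affected humerus, non-affected humerus, non-affected femur and affected femur each overlapped with the next, and of these neighbours non-affected femur and non-affected humerus passed the test given below.

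CTSK (Ssc.1020.1.S1_at) was well above the floor in every sample. It read 12.11, 11.00, 11.01 and 11.98 in affected femur, against 12.16, 12.91 and 13.78 as lowest, median and highest value in affected humerus. In non-affected femur it read 12.13, 11.96, 12.31 and 12.16, against 11.48, 12.32 and 13.61 in non-affected humerus. The affected sites did not overlap, by a narrow margin, and the non-affected sites did. Means were 11.53 ± 0.60 (SD, n = 4) in affected femur, 12.14 ± 0.15 (SD, n = 4) in non-affected femur, 13.00 ± 0.58 (SD, n = 7) in affected humerus and 12.39 ± 0.74 (SD, n = 6) in non-affected humerus. From the highest group to the lowest, affected humerus, non-affected humerus, non-affected femur and affected femur, neighbours overlapped and none passed the test. CTSK is also made by fibroblasts, and by chondrocytes under some conditions.

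ITGB3 (Ssc.44.1.S1_at) was at or near the floor throughout the femur. It read 4.40 and 5.11 in affected 2 and 4 and lay at the floor in affected 1 and 3 of the femur, against 5.93, 8.50 and 10.15 as lowest, median and highest value in affected humerus. In non-affected femur it read 4.99, 5.24 and 4.81 and lay at the floor in the averaged sample 1 and 2, against 4.30, 6.78 and 9.61 in non-affected humerus. The affected joints did not overlap and the non-affected ones did, as humerus non-affected 5 again held the lowest humeral value. Means were 4.38 ± 0.52 (SD, n = 4) in affected femur, 4.76 ± 0.54 (SD, n = 4) in non-affected femur, 8.40 ± 1.34 (SD, n = 7) in affected humerus and 6.89 ± 1.71 (SD, n = 6) in non-affected humerus. Neighbours in level overlapped throughout, and of these non-affected femur and non-affected humerus passed the test given below. With 2 of 4 affected and 1 of 4 non-affected femoral samples at the floor, the size of its difference between the joints is not exact. ITGB3 also pairs with ITGA2B on platelets, and with ITGAV on endothelial cells.

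The 2 CALCR probe sets ran in opposite directions. Ssc.14275.1.A1_at, which the annotation ties to an expressed sequence tag, read 4.66, 4.08, 4.40 and 4.68 in affected femur, against 4.15, 7.17 and 8.35 as lowest, median and highest value in affected humerus. In non-affected femur it read 4.23, 4.67 and 4.94 and lay at the floor in sample 3, against a lowest value at the floor, a median of 5.23 and a highest of 8.13 in non-affected humerus. Most humeral values were higher than the femoral ones, but humerus affected 7 and non-affected 5 lay among the femoral samples. Means were 4.46 ± 0.28 (SD, n = 4) in affected femur, 4.46 ± 0.42 (SD, n = 4) in non-affected femur, 6.77 ± 1.54 (SD, n = 7) in affected humerus and 5.51 ± 1.38 (SD, n = 6) in non-affected humerus, and neighbours in level overlapped throughout.

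Ssc.8116.1.S1_at, which is tied to the RefSeq transcript of CALCR, moved within a narrower range and in the opposite direction. It read 6.44, 6.73, 6.69 and 6.46 in affected femur, against 5.19, 5.87 and 6.04 as lowest, median and highest value in affected humerus. In non-affected femur it read 6.36, 6.91, 6.14 and 6.56, against 5.79, 5.93 and 6.26 in non-affected humerus. Every affected femoral sample was above every affected humeral one, while the non-affected joints overlapped. Means were 6.58 ± 0.15 (SD, n = 4) in affected femur, 6.49 ± 0.33 (SD, n = 4) in non-affected femur, 5.77 ± 0.30 (SD, n = 7) in affected humerus and 5.96 ± 0.19 (SD, n = 6) in non-affected humerus, and neighbours in level overlapped throughout, of which non-affected femur and non-affected humerus passed the test given below. Which of both probe sets follows the CALCR transcript was not tested.

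limma fitted the 4 group means over all 16799 probe sets that passed a filter on low signal, and p-values were adjusted over all of them. All 5 member probe sets passed the filter at a mean of 5.30. ITGB3 and CALCR Ssc.14275.1.A1_at passed through their humeral values, since their femoral means of 4.57 and 4.46 were under it. A lower femur is therefore partly built into their being tested. The counts between the joints, here and in non-affected cartilage, include both. In affected cartilage all 5 probe sets passed the test between the joints, where 38.5% of all tested probe sets did. Of the 5, 4 were lower in the femur (24.6% of all) and 1 was higher (13.9% of all). For 3 of the 5, every femoral sample lay below every humeral sample (12.9% of all), and for 1 every femoral sample lay above (7.33% of all). Apart from ITGB3 and CALCR Ssc.14275.1.A1_at, ACP5 and CTSK were called lower, each with all femoral samples below. CALCR Ssc.8116.1.S1_at was called higher, with all femoral samples above. The median difference of the 5 was -2.32, against -0.11 over all tested probe sets. This median is the value of CALCR Ssc.14275.1.A1_at, so it too is partly built in by the filter.

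In affected cartilage, femur minus humerus, the log2 difference of ACP5 was -6.92 ± 1.0 (SE; 95% interval -9.01 to -4.83, adjusted p = 7.24e-05). None of the tested probe sets had a larger drop, and 1.32% had a smaller p. With affected femoral ACP5 values as low as 4.15, near the floor, the size of this drop is not exact. ITGB3 fell by 4.02 on the log2 scale, about 16.2-fold (adjusted p = 3.84e-04), a size exceeded by 38 probe sets. CTSK fell by 1.48, or 2.79-fold (adjusted p = 0.00258). CALCR Ssc.14275.1.A1_at fell by 2.32 (adjusted p = 0.0126), a size that is not exact because its femoral values lie near the floor. CALCR Ssc.8116.1.S1_at rose by 0.81, or 1.75-fold (adjusted p = 7.96e-04). All 5 calls held when any 1 affected sample was left out, but with both CALCR probe sets averaged the gene had a difference of -0.76 and was not called (adjusted p = 0.0838). In bulk tissue such as this, fewer cells that make a transcript, osteoclasts or others, and less of it per cell cannot be told apart.

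In non-affected cartilage 3 of the 5 probe sets passed between the joints, against 36.6% of all tested. Of these, 2 were lower in the femur (25.0% of all) and 1 was higher (11.6% of all), and for 0 of the 5 did the joints lie apart, below or above (13.6% and 7.55% of all). ACP5 fell by 3.33 on the log2 scale, 10.1-fold (95% interval -5.49 to -1.18, adjusted p = 0.0169), a drop exceeded by 8 of the 16799 probe sets. ITGB3 fell by 2.13 (adjusted p = 0.0310) and CALCR Ssc.8116.1.S1_at rose by 0.54 (adjusted p = 0.0163). CALCR Ssc.14275.1.A1_at differed by -1.05 (95% interval -2.53 to 0.43, adjusted p = 0.254) and CTSK by -0.25 (95% interval -0.99 to 0.49, adjusted p = 0.605). These 3 calls rest on few samples: without femur non-affected 3 none remained (adjusted p = 0.0688 for ACP5, 0.0574 for ITGB3 and 0.0857 for CALCR). ITGB3 also lost its call without the averaged femur non-affected 1 and 2, femur non-affected 5, humerus non-affected 2 or humerus non-affected 4 (adjusted p up to 0.0857), and with only these groups fitted (adjusted p = 0.0525). Without humerus non-affected 5 the differences were -4.14 for ACP5 (adjusted p = 0.00151), -2.65 for ITGB3, -0.43 for CTSK, -1.36 for CALCR Ssc.14275.1.A1_at and 0.60 for Ssc.8116.1.S1_at, with the same 3 probe sets called.

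**Figure D2:**
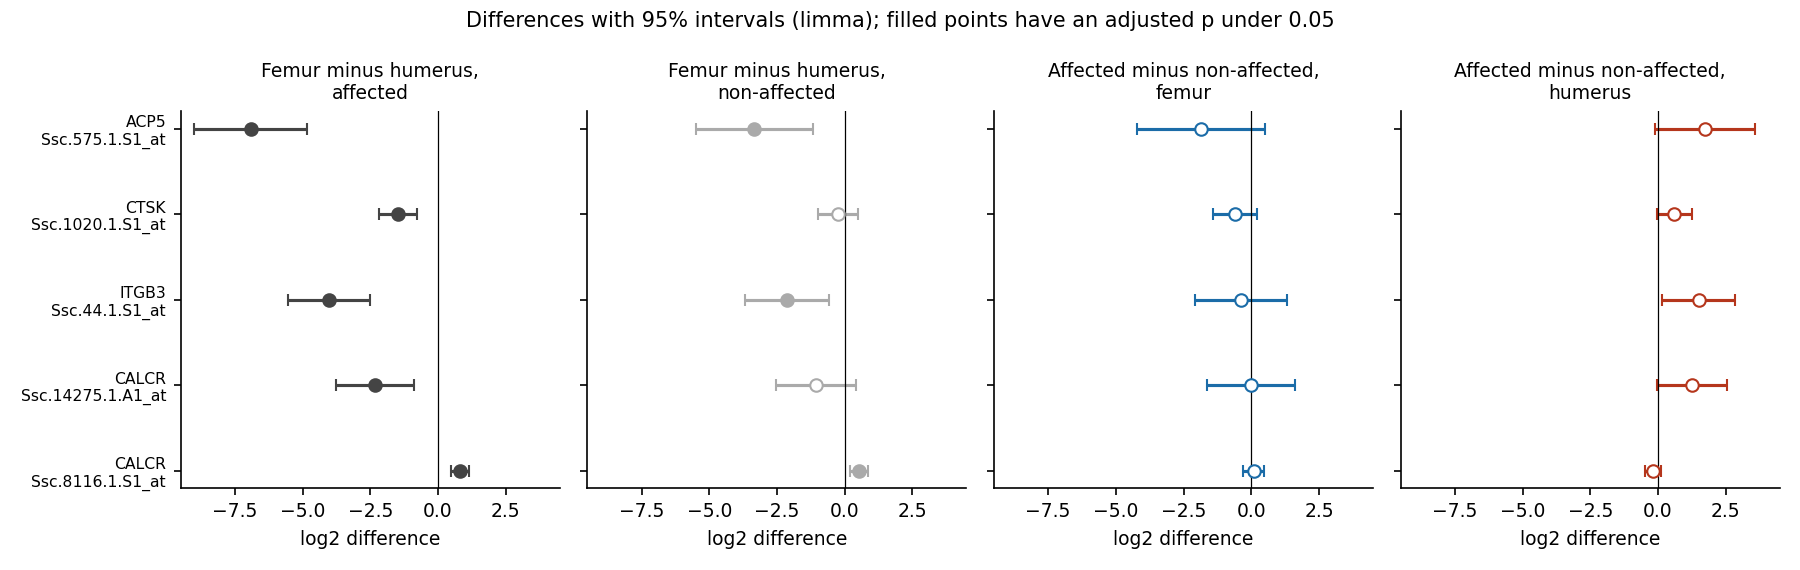
Log2 differences of the 5 probe sets with 95% intervals (horizontal axis) in 4 panels, which give femur minus humerus for affected and for non-affected cartilage, then affected minus non-affected for each joint. Filled points passed an adjusted p under 0.05; all 5 are filled in affected cartilage between the joints, 3 in non-affected cartilage, and none between affected and non-affected samples of a joint.

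Within the humerus, affected samples averaged higher than non-affected ones for ACP5, CTSK, ITGB3 and CALCR Ssc.14275.1.A1_at, with overlapping groups throughout (0 of 5 apart, against 0.0595% of all above and 0.161% below). The difference was 1.74 ± 0.89 for ACP5 (SE; 95% interval -0.12 to 3.59), 0.61 ± 0.31 for CTSK (95% interval -0.02 to 1.25), 1.51 ± 0.64 for ITGB3 (95% interval 0.17 to 2.85) and 1.26 ± 0.61 for this CALCR probe set (95% interval -0.02 to 2.54). CALCR Ssc.8116.1.S1_at differed by -0.19 (95% interval -0.48 to 0.11), and by -0.23 to -0.09 with 1 humeral sample left out. limma called 0 of the 5 and 0% of all tested probe sets, with adjusted p between 0.759 and 0.824 for the 5. At an unadjusted p under 0.05 there was 1 of 5, ITGB3, against 6.55% of all. In size, 3 of the 5 differed by 1 log2 unit or more to the higher side, against 0.566% of all, but without humerus non-affected 5 none of the 5 did. With all samples, 18 of the 16799 probe sets had a larger positive difference than ACP5.

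The status difference in the humerus leaned on single samples at both ends. Humerus non-affected 5 held the lowest humeral ACP5, CTSK, ITGB3 and CALCR Ssc.14275.1.A1_at signal, and without it the differences were 0.93 for ACP5, 0.43 for CTSK, 0.99 for ITGB3 and 0.96 for CALCR. The same sample had the lowest humeral means of the macrophage (5.51), endothelial (5.86), bone (6.35) and hypertrophic chondrocyte (6.28) markers, whose part in the result was not tested. Humerus non-affected 2 held the highest signal of its group for the same probe sets, at 13.70 for ACP5 and 9.61 for ITGB3, near the highest affected samples. Humerus affected 7 was the lowest affected sample for each of these, at 9.51 for ACP5 and 5.93 for ITGB3, and also for the macrophage (6.92), bone (7.41) and hypertrophic chondrocyte (7.02) means. Leaving out 1 sample at a time gave ACP5 differences between 0.93 and 2.37, none of which passed the test.

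Within the femur the averages ran the other way for ACP5 and CTSK. ACP5 differed by -1.85 ± 1.13 between affected and non-affected femur (SE; 95% interval -4.21 to 0.51) and CTSK by -0.61 ± 0.39 (95% interval -1.42 to 0.20). With 1 femoral sample left out, ACP5 differed by -2.40 (without affected 4) to -1.17 (without non-affected 4). ITGB3 differed by -0.38 (95% interval -2.08 to 1.32), or by -0.63 (without the averaged non-affected 1 and 2) and -0.62 (without affected 4) to -0.22 (without non-affected 4), and the CALCR probe sets by 0.00 (Ssc.14275.1.A1_at, 95% interval -1.63 to 1.62) and 0.08 (Ssc.8116.1.S1_at, 95% interval -0.29 to 0.46). limma called 0 of the 5, against 1.14% of all tested probe sets, with adjusted p between 0.359 and 0.998, and the groups of 0 of 5 lay apart, against 3.01% of all above and 5.07% below. At an unadjusted p under 0.05 there were 0 of 5, against 20.4% of all. The femoral samples with the most ACP5 were non-affected 4, at 9.23, and the lowest were affected 2 and 3, at 4.15 and 4.71, which also had the lowest CTSK of all samples. For ITGB3 and CALCR Ssc.14275.1.A1_at a femoral difference was limited by the floor, which both lay close to.

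Over both joints, with site in the model, the status differences were 0.37 for ACP5 (95% interval -1.26 to 1.99), 0.14 for CTSK, 0.79 for ITGB3, 0.78 for CALCR Ssc.14275.1.A1_at and -0.08 for Ssc.8116.1.S1_at. Without humerus non-affected 5 they were -0.20, 0.0058, 0.43, 0.57 and -0.04 for these probe sets, in that order. limma called 0 of 5 and 0% of all, and at an unadjusted p under 0.05 there were 0 of 5 against 7.28% of all. The opposite averages in the joints were compared directly as femoral minus humeral status difference. This was -3.58 for ACP5 (95% interval -6.59 to -0.58, adjusted p = 0.203) and -1.23 for CTSK (95% interval -2.26 to -0.20, adjusted p = 0.204). It was -1.89 for ITGB3, -1.27 for CALCR Ssc.14275.1.A1_at and 0.27 for Ssc.8116.1.S1_at. Without humerus non-affected 5 it was -2.78 for ACP5, -1.04 for CTSK, -1.37 for ITGB3, -0.96 for CALCR Ssc.14275.1.A1_at and 0.21 for Ssc.8116.1.S1_at. limma called 0 of the 5 for this difference, against 0.268% of all, and 2 of 5 had an unadjusted p under 0.05 against 18.9% of all.

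Across the 13 humeral samples ACP5, CTSK, ITGB3 and CALCR Ssc.14275.1.A1_at varied together. ACP5 was related to ITGB3 with Pearson's r = 0.97 and Spearman's rho = 0.98, to CTSK with r = 0.94 and rho = 0.96, and to this CALCR probe set with r = 0.91 and rho = 0.96. Each of these 6 relations among the 4 probe sets had an r between 0.91 and 0.97, and Pearson's permutation p was 1e-05 for each, the smallest that 100000 permutations can give (adjusted p = 3.33e-05 over 20 relations). Without the 2 samples farthest from the median of the first gene, r stayed between 0.93 and 0.97. With each sample set against the mean of its own status group, r lay between 0.89 and 0.97. Arrays share their normalisation and their overall RNA makeup, so these relations are a description of the samples.

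CALCR Ssc.8116.1.S1_at did not join them. Its r with ACP5 in the humerus was -0.49 (rho = -0.55, permutation p = 0.0951 and 0.0516, adjusted p = 0.189 and 0.0938), and its r with the other CALCR probe set was -0.35 (rho = -0.65, permutation p = 0.245 and 0.0181, adjusted p = 0.294 and 0.0454). In the 8 femoral samples ACP5 and CTSK were related with r = 0.80 and rho = 0.88 (exact permutation p = 0.00255 and 0.00724, adjusted p = 0.0073 and 0.0207), and r was 0.74 without the 2 samples farthest from the ACP5 median. With each femoral sample set against the mean of its own status group, this r was 0.68. ACP5 and ITGB3 had r = 0.61 there (rho = 0.57, exact permutation p = 0.104 and 0.151, adjusted p = 0.189 for both).

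**Figure D3:**
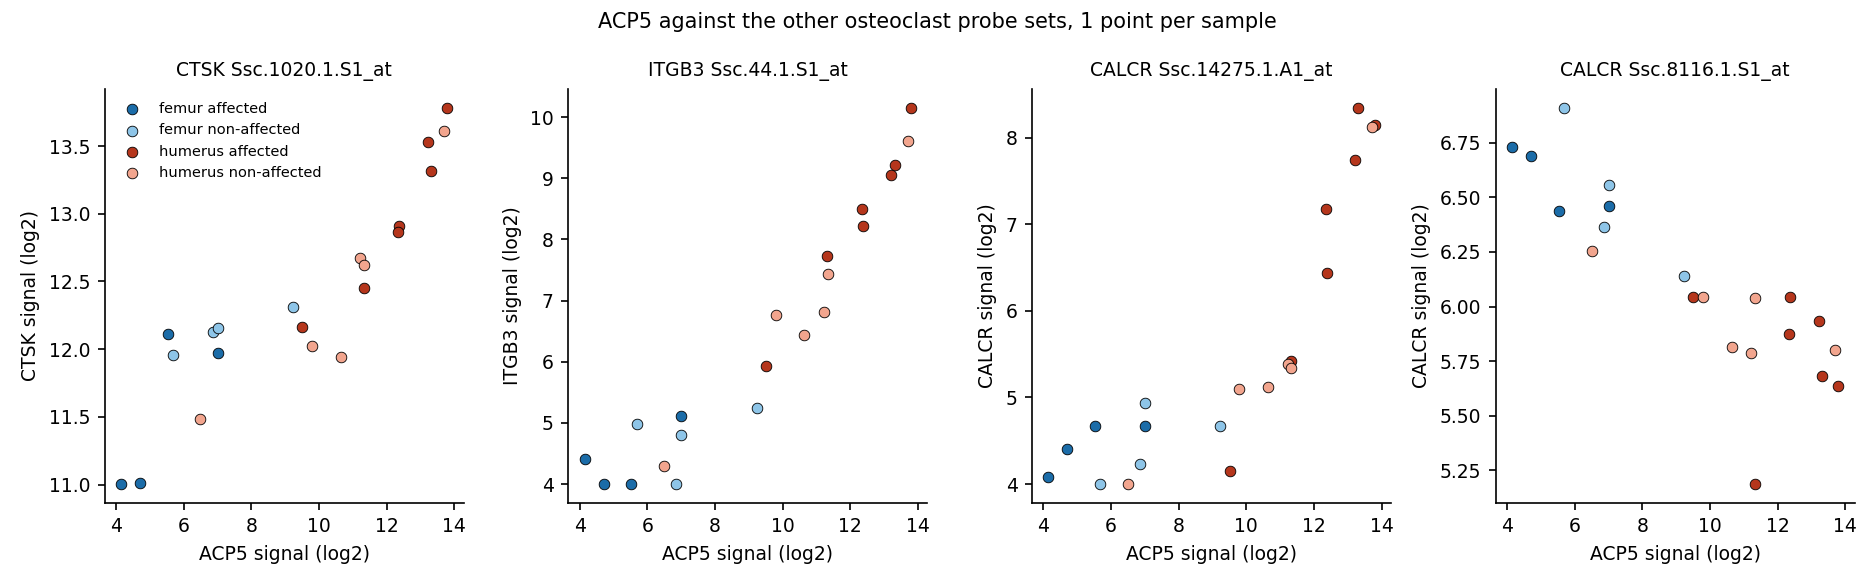
Signal of CTSK, ITGB3 and both CALCR probe sets (vertical axes, log2) against that of ACP5 (horizontal axes, log2), with 1 point per sample coloured by group. Within the humerus CTSK, ITGB3 and CALCR Ssc.14275.1.A1_at climb with ACP5, 1 pale humeral point (non-affected 5) sits at an ACP5 signal of 6.50 among the femoral samples, and CALCR Ssc.8116.1.S1_at shows no such climb.

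The genes most alike in pattern were sought over all 21 samples by Pearson's r. As the joints lie apart, such an r mostly reflects the joint, and r within the 13 humeral samples is given beside it. The genes nearest to ACP5 were SKAP2, an adaptor of Src family kinases (r = 0.97, humerus 0.92), the raft protein RFTN1 (0.95, humerus 0.89), the calcium sensor NCALD (0.95, humerus 0.90), the leukocyte actin bundler LCP1 (0.95, humerus 0.93) and the glutathione transferase MGST1 (0.95, humerus 0.92). For ITGB3 they were the acid amidase NAAA (r = 0.97, humerus 0.94), MGST1 (0.96, humerus 0.93), LCP1 (0.96, humerus 0.96), the chemokine receptor CCR1 (0.96, humerus 0.94) and LIMD2 (0.96, humerus 0.95).

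Among the nearest to CTSK were the ubiquitin ligase FBXO32 (r = 0.93, humerus 0.92), TIAF1 (0.92, humerus 0.89), SNX10, a sorting protein needed for acid release by osteoclasts (0.91, humerus 0.91), and the leukocyte integrin ITGB2 (0.91, humerus 0.89). The brighter CALCR probe set, Ssc.8116.1.S1_at, lay nearest to the initiation factor EIF1 (r = 0.92, humerus 0.86), the insulin receptor substrate IRS1 (0.91, humerus 0.76), the calcium channel TRPV6 (0.91, humerus 0.75), the kinase SIK2 (0.90, humerus 0.59) and the repair protein RAD54L (0.90, humerus 0.77). Named after its values were seen, the dimmer CALCR probe set was closest to ATP6V0D2, a proton pump subunit that osteoclasts need to fuse (r = 0.97, humerus 0.97), followed by LIMD2 (0.96, humerus 0.98), the neutrophil protease ELANE (0.95, humerus 0.94), LOC396867 (0.95, humerus 0.94) and the Wnt receptor FZD5 (0.94, humerus 0.92).

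Other genes that osteoclasts use were listed by role, with the brightest probe set of each gene. Of 102 listed genes 66 have a probe set of that symbol and 61 passed the filter. Between the joints in affected cartilage 36 of the 61 were called lower in the femur and 4 higher, against 24.6% and 13.9% of all tested probe sets, with a median difference of -0.68 against -0.11 over all. Of those called lower, TYROBP, FCER1G, SPI1, IRF8, ATP6V0D2, SNX10 and MMP9 had affected femoral means between 4.83 and 5.09, under the filter's 5.30. They passed the filter on values of other groups, so a lower affected femur is partly built into their being tested. The counts and the median include them. In non-affected cartilage 10 were called lower and 4 higher, against 25.0% and 11.6% of all tested probe sets, a smaller share called lower than over all, with a median of -0.25 against -0.12 over all. Between affected and non-affected samples 0 of the 61 were called in either joint, against 0% of all in the humerus and 1.14% in the femur. Medians were 0.15 in the humerus and -0.20 in the femur, against -0.01 and 0.01 over all. TYROBP, FCER1G and IBSP are also in the macrophage or bone lists below, and 14 of the genes have further tested probe sets, of which 4 of 23 had the opposite sign in affected cartilage (MITF, CD47, ATP6V1A and THBS1) and 0 a call in the opposite direction.

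Signals, their receptors and transcription factors came first in the order of osteoclast formation. The defining regulators TNFSF11 (RANKL), TNFRSF11A (RANK), TNFRSF11B (osteoprotegerin), CSF1 and CSF1R carry no probe set under these symbols and were not analysed here. NFATC1, the master factor of osteoclast formation, was under the filter, with means of 5.05 in affected femur, 4.40 in non-affected femur, 5.10 in affected humerus and 5.26 in non-affected humerus. In affected cartilage, the CSF1 receptor ligand IL34 fell by 0.98 and the semaphorin SEMA4D by 1.06 in the femur, while the adaptor TRAF6 differed by -0.04. The immune receptor adaptors TYROBP and FCER1G, which co-stimulate osteoclast precursors, fell by 3.67 and 3.33 in affected femur (adjusted p = 6.14e-04 and 4.76e-04). SIRPA differed by 0.55 there, and was called higher in non-affected femur at 0.76.

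Among the transcription factors, IRF8 and SPI1, which set the myeloid lineage, fell by 1.82 and 1.69 in affected femur, FOS by 0.97 and MITF by 0.61. FOSL1 rose by 0.71 and TFE3 by 0.27, and FOSL2 differed by 0.13. FOS also fell by 0.81 in non-affected femur. Between affected and non-affected humerus IRF8 differed by 0.55, SPI1 by 0.30 and FOSL1 by -0.25, and between affected and non-affected femur by -0.59, -0.64 and 0.27. SEMA4D, IL34 and TRAF6 differed by 0.18, 0.16 and -0.08 between affected and non-affected humerus, and TYROBP, FCER1G and SIRPA by 1.04, 0.80 and -0.09. In the femur the status differences were -0.41, -0.02 and 0.17 for the first 3, and -1.77, -2.01 and -0.31 for the adaptors and SIRPA. None of these status differences passed the test.

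Of 7 tested fusion and adhesion genes 2 were called lower in affected femur, and in non-affected femur 2 were called lower and 2 higher, where 24.6% of all were lower in affected and 25.0% lower and 11.6% higher in non-affected femur. ATP6V0D2 fell by 2.40 in affected femur (adjusted p = 0.0129), and had the largest status difference of its list in the humerus at 1.49 (adjusted p = 0.759), with 0.16 in the femur. ITGB1, the common integrin beta chain, fell by 0.57 in affected and 0.80 in non-affected femur. ITGAV, the alpha chain that partners ITGB3, differed by 0.44 in affected femur (adjusted p = 0.209) and by -0.23 in non-affected femur. CD47 fell by 0.89 in non-affected femur, where ITGB5 and the tetraspanin CD81 rose by 0.59 and 0.44. Status differences in the humerus were -0.50 for CD47 and -0.27 for CD9, and in the femur 0.57 for ITGAV, -0.51 for CD81 and -0.24 for ITGB5, none of them called.

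Among genes of acid secretion all 16 tested had a negative difference between affected femur and affected humerus, where 41.12% of all tested probe sets had a positive one. Of the 16, 12 were called, against 24.6% of all called lower, with a median of -0.76. SNX10 fell by 2.36 (adjusted p = 0.00112). The proton pump subunits ATP6V1A, ATP6V1H, ATP6V1B2, ATP6V1C1, ATP6V1D, ATP6V0C, ATP6V1G1, ATP6V0E1 and ATP6V0D1 fell by 1.20 to 0.52, its accessory protein ATP6AP2 by 0.60, and TCIRG1, the pump subunit of the osteoclast border, by 0.43 (adjusted p = 0.00378). In non-affected cartilage 5 of 16 were called, near the 25.0% of all called lower, and each was lower in the femur: ATP6V1C1, ATP6AP2, ATP6V1A, ATP6V1G1 and ATP6V1D, by 0.71 to 0.56. Between affected and non-affected humerus 15 of 16 differences were positive (46.55% of all) with a median of 0.16, SNX10 at 0.98, ATP6V1B2 at 0.38 and ATP6V1H at 0.27. In the femur 14 of 16 were negative, where 51.11% of all were positive, with a median of -0.21, SNX10 at -0.70, ATP6V1H at -0.54 and ATP6V0D1 at -0.53. None of those status differences was called. Humerus non-affected 5 had the lowest humeral mean of this list, at 9.02, and the humeral differences include it.

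**Figure D4:**
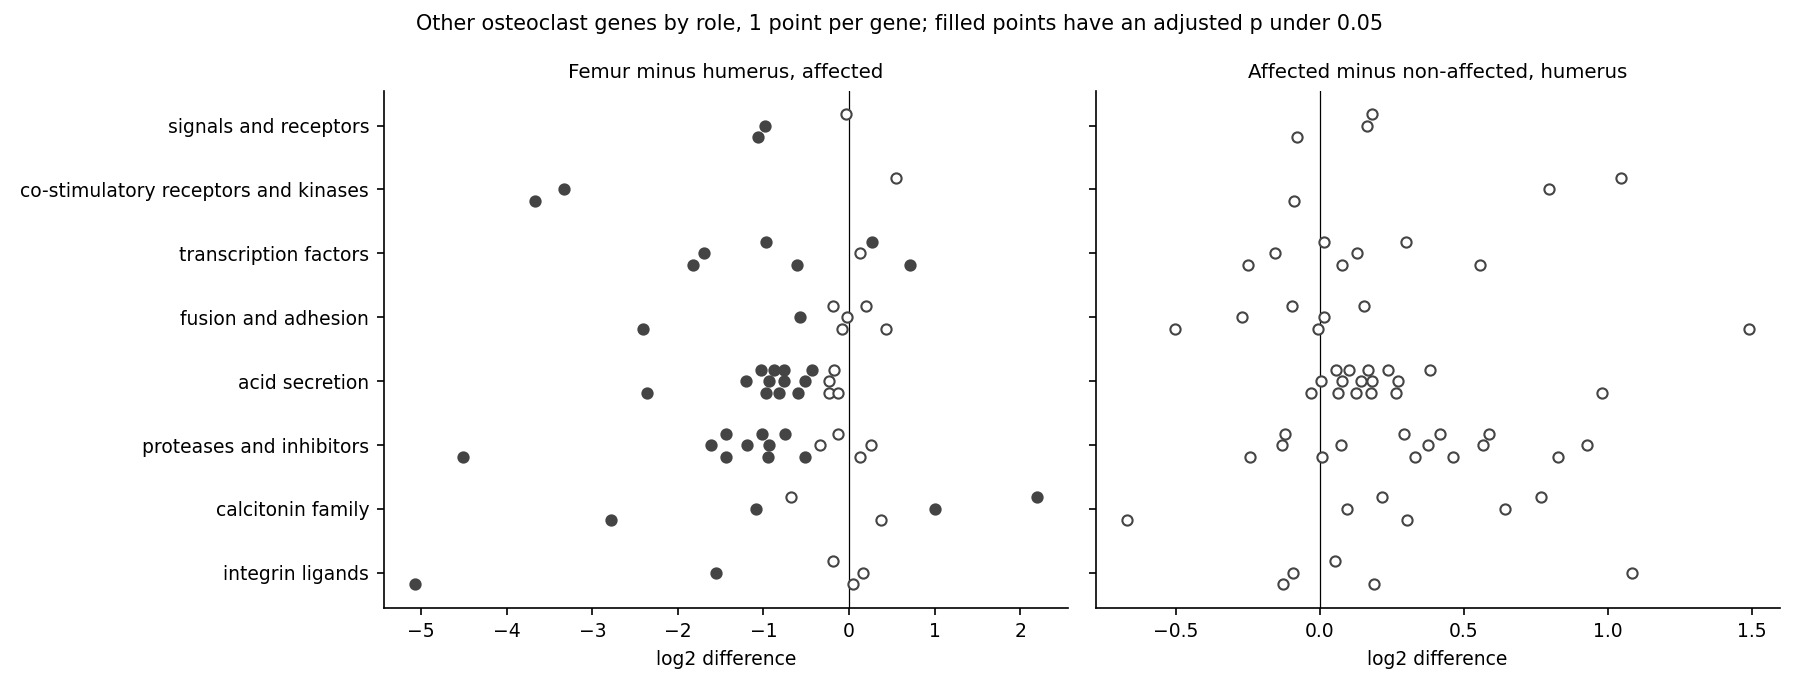
Log2 differences (horizontal axis) of the 61 tested osteoclast genes other than the 4 members, grouped by role (rows), for affected femur minus affected humerus on the left and for affected minus non-affected humerus on the right. Filled points passed an adjusted p under 0.05: 36 lower and 4 higher on the left, and 0 on the right; the 2 horizontal scales differ.

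Of 14 tested proteases and protease inhibitors 10 were called lower in affected femur and 0 higher, against 24.6% and 13.9% of all, with a median of -0.94. The protease MMP14 (-0.13) and the inhibitors CST3, CST6 and TIMP2 were not called with the brightest probe set of each. However, a further CST3 probe set was called higher in affected femur, at 0.40 (adjusted p = 0.0216). So was the further TIMP2 probe set, at 0.38 (adjusted p = 0.0419). The remaining CST3 probe set, at 0.30, was not called (adjusted p = 0.0933). Cathepsin S, CTSS, a protease of antigen-presenting cells, fell by 4.51 (adjusted p = 1.65e-04). The differences of the lysosomal cathepsins CTSD, CTSC, CTSH, CTSB and CTSZ were -1.61, -1.44, -1.43, -0.94 and -0.75, all called. All further tested probe sets of CTSC and CTSS were called lower too. The gelatinase MMP9, which osteoclasts release, fell by 1.19, the cystatin CSTB by 1.02, legumain, LGMN, by 0.94 and the inhibitor TIMP1 by 0.52. In non-affected cartilage 0 of 14 were called between the joints, against 25.0% of all called lower and 11.6% higher. Their median there was -0.08, against -0.12 over all. The status differences were 0.93 for CTSS, 0.83 for CTSD and 0.59 for CTSC in the humerus, and -1.95 for CTSS, -1.08 for CTSZ and -0.93 for CTSH in the femur, none of them called.

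Calcitonin relatives went in both directions. RAMP1 and RAMP2, which tune the ligand choice of CALCR and its relative CALCRL, fell by 1.08 and 2.79 in affected femur, whereas RAMP3 rose by 1.01 and the vasodilator peptide ADM by 2.20 (adjusted p = 0.0233). RAMP3 also rose in non-affected femur, by 0.63. CALCRL differed by 0.37 in affected femur and by 0.35 in non-affected femur, neither called. Status differences in the humerus were 0.77 for RAMP2, -0.67 for ADM and 0.64 for RAMP1, and in the femur 1.0 for ADM, -0.86 for RAMP2 and 0.47 for RAMP3.

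Of the matrix ligands that integrins of osteoclasts bind, bone sialoprotein, IBSP, fell by 5.07 in affected femur (adjusted p = 0.00368) and by 6.10 in non-affected femur (adjusted p = 0.00155), and osteopontin, SPP1, differed by -1.55 in affected femur (adjusted p = 0.0398). Fibronectin, FN1, fell by 0.38 in non-affected femur. THBS1 and VTN differed by 0.17 and 0.05 in affected femur. Between affected and non-affected samples IBSP differed by 2.11 in the femur and 1.08 in the humerus, SPP1 by -0.50 in the femur, THBS1 by 0.27 in the femur and 0.19 in the humerus, and VTN by -0.13 in the humerus, none of them called.

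Some marker lists of other cells were also lower in affected femur, while others were not or went in both directions. Their relation to the osteoclast genes and their part in the result were not tested. The mean of 11 measured macrophage genes lay between 4.80 and 6.29 in affected femur, 6.07 and 7.68 in non-affected femur, 6.92 and 9.20 in affected humerus, and 5.51 and 8.70 in non-affected humerus. In affected cartilage 10 of the 11 were called lower in the femur and MARCO higher, and in non-affected cartilage 0 were lower and MARCO was higher. Over all tested probe sets 24.6% were lower and 13.9% higher in affected femur, and 25.0% and 11.6% in non-affected femur. Of the 11, C1QA, FCER1G, TYROBP, AIF1, ITGB2 and MRC1 had affected femoral means under the filter's 5.30 and passed on other groups. CD163, the haemoglobin scavenger receptor, fell by 3.93 in affected femur and differed by -0.85 in non-affected femur. The status differences had medians of 0.81 in the humerus and -1.77 in the femur, with 0 called, against 0% and 1.14% of all.

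The mean of 7 measured bone genes lay between 5.84 and 8.26 in affected femur, 6.01 and 7.77 in non-affected femur, 7.41 and 9.72 in affected humerus, and 6.35 and 9.46 in non-affected humerus, and 4 of 6 tested were called lower in affected femur (24.6% of all) and 2 of 6 in non-affected femur (25.0% of all). The 7 neutrophil genes lay between 4.16 and 7.05, 4.58 and 5.23, 5.51 and 11.22, and 4.91 and 11.85 in the same order of groups. In affected femur 6 of 7 were called lower (24.6% of all) and in non-affected femur 0 (25.0% of all). Of these 7, S100A8, S100A12, PR39, LTF and ELANE had means under the filter's 5.30 in both femoral groups and passed through their humeral values. Humerus non-affected 2, which was high in the osteoclast genes, held the neutrophil value of 11.85. The 8 endothelial genes lay between 5.09 and 6.71, 5.01 and 6.97, 7.05 and 8.22, and 5.86 and 7.83 in that order. In affected femur 6 of 7 tested were called lower (24.6% of all) and in non-affected femur 2 (25.0% of all). CDH5, VWF and TEK had affected femoral means of 5.01, 4.45 and 4.96, under the filter's 5.30, and passed on other groups. CLDN5 had means under 5.30 in both femoral groups and passed through its humeral values. ESAM was called higher in both femoral groups (13.9% and 11.6% of all).

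Over all tested probe sets, 24.6% were called lower and 13.9% higher in affected femur. In non-affected femur these shares were 25.0% and 11.6%. The 4 hypertrophic chondrocyte genes had 2 called lower and 1 higher in affected femur and 3 lower in non-affected femur, with median differences of -1.80 and -1.64. Of these, MMP13 had means under 5.30 in both femoral groups and passed the filter through its humeral values. The 6 chondrocyte genes had 2 called higher in affected femur and 3 lower in non-affected femur. Of 4 erythroid genes 0 were called in affected and 1 lower in non-affected femur. Muscle genes had 0 of 5 called in affected and 1 higher in non-affected femur, adipocyte genes 2 of 4 higher and 1 lower in each, and fibroblast and tendon genes 1 of 3 higher in affected and 1 lower in non-affected femur. None of the 5 measured lymphocyte genes passed the filter on signal. No gene of any of these lists was called between affected and non-affected samples of a joint. Over all tested probe sets 0% were called in the humerus and 1.14% in the femur.

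**Figure D5:**
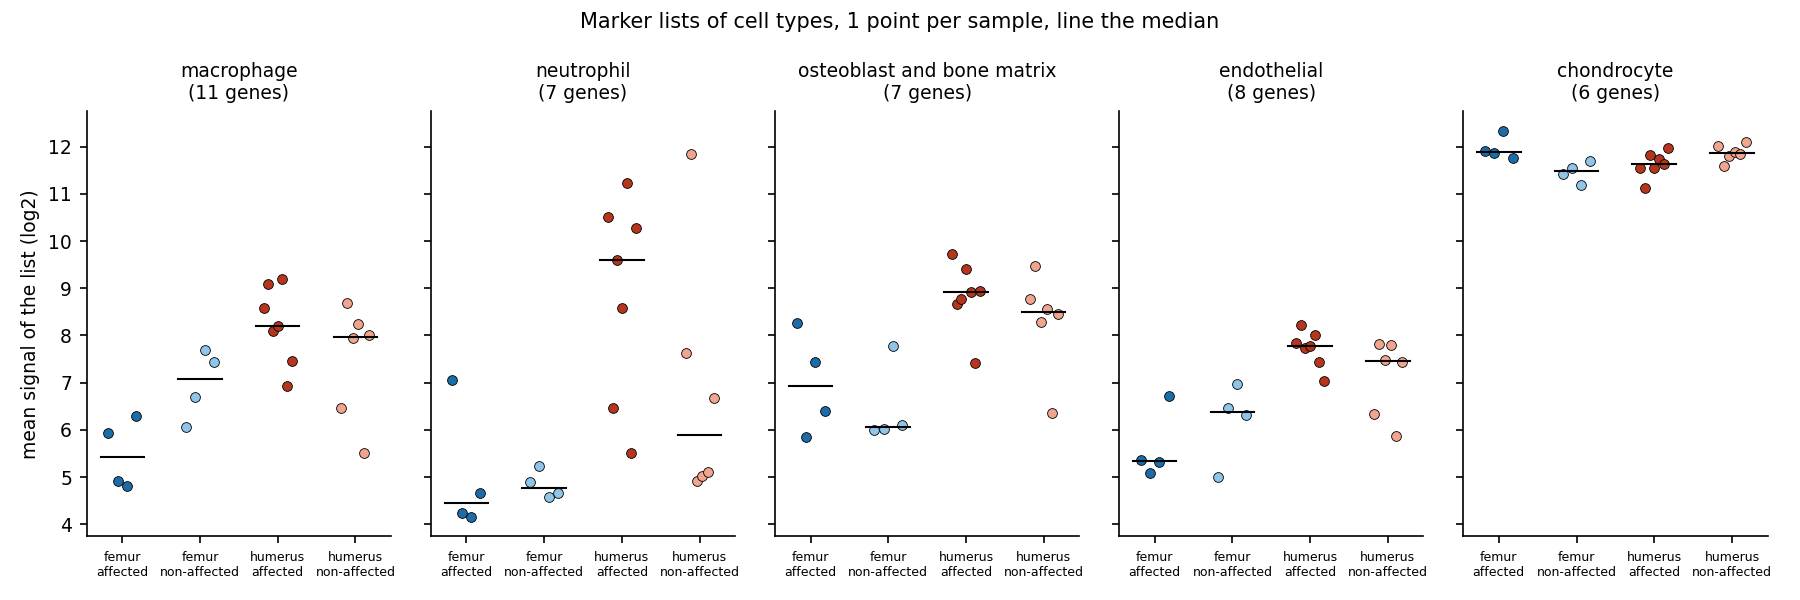
Mean signal (vertical axis, log2) of the measured macrophage, neutrophil, bone, endothelial and chondrocyte markers in each sample of the 4 groups, with the median as a line. The medians of the macrophage, neutrophil, bone and endothelial means are lower in both femoral groups than in both humeral ones, and the chondrocyte means lie between 11.12 and 12.34 in all groups.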

How the data were processed

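Per the submitters' processing notes, arrays were processed with GCOS 1.1.1; no source used here gives the normalisation step. The deposited table holds log2 values of 24123 probe sets on 23 arrays, used as deposited. Gene names come from the platform annotation, which gives 1 symbol for 10099 probe sets, several for 198 and none for 13826; no member has several. Arrays of a group whose differences had an SD under 0.25 were averaged (21 samples). The 124 control probe sets and 7200 dim ones, whose mean lay below the 30th percentile (5.30), were left out. limma 3.58.1 in R 4.3.3 fitted the 4 group means, or status with site for the comparison over both joints; a call is a Benjamini-Hochberg adjusted p under 0.05 over all 16799 probe sets. Signal within 0.01 of 4 counts as the floor. Intervals are 95% intervals of the fit; the number of arrays limits their precision. Correlations used permutations in Python 3.11.15 (numpy 2.4.6, scipy 1.17.1), exact with 8 samples; plots used matplotlib 3.10.9. The fit was tested on simulated data with known changes. Named genes are all member probe sets, the 5 genes most alike to each member's brightest probe set, and, per role, every called gene of the listed osteoclast genes with the 3 largest status differences in each joint. Of the genes most alike to CTSK, 1 is not reported here. Members, lists and tests were chosen with earlier results of these data known. No sequences were printed, as none were given for these genes.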

Additional observations from a re-analysis of the deposited data

Results flagged for a closer look

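Of 20 groups of member values examined for a sample far from the rest, 1 was marked: for CALCR Ssc.14275.1.A1_at, humerus non-affected 2 read 8.13 and the next sample of its group 5.39. Chance alone marks about 1 in 20 groups. The same sample was the highest non-affected humeral one for ACP5, at 13.70.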

How the results depend on the processing

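The settings changed were the filter (none, or the 50th percentile), the scaling (quantile, or medians centred), all 23 arrays as separate samples, the variance model, array weights, the groups fitted, a floor of 5, probe sets averaged per gene, and 1 sample left out. Of 275 member differences under a changed setting 265 kept direction and side of the threshold, 2 lost a call and 8 turned; of 420 with 1 sample left out, 407, 7 and 6. In affected cartilage the count of called members between the joints was 3 with the 50th percentile filter, which leaves out both CALCR probe sets, and 3 with probe sets averaged per gene, where 4 genes are counted; in non-affected cartilage it ran from 0 to 3 with 1 sample left out, and was 0 without femur non-affected 3. Averaging both CALCR probe sets turned the sign of Ssc.8116.1.S1_at: the mean differed by 0.54 between affected and non-affected humerus, 0.35 over both joints, -0.50 in the comparison of status differences, -0.26 between the joints in non-affected and -0.76 in affected cartilage. The near-zero femoral status difference of CALCR Ssc.14275.1.A1_at was 0.0014 with quantile scaling, 0.0413 with 23 arrays and 0.0403 with probe sets averaged, and ran from -0.16 to 0.15 with 1 sample left out; that of Ssc.8116.1.S1_at ran from -0.0324 to 0.22. The status difference of ACP5 over both joints ran from -0.20 (without humerus non-affected 5) to 0.73. Apart from the alternatives' own construction, the cause was not tested. No status difference of a member passed under any setting. The floor limits what could be seen of ITGB3 and CALCR Ssc.14275.1.A1_at in the femur.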
